A study of Mus musculus with 2 samples.

Results

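The 886 regions described here are stretches of open chromatin at the 3' ends of genes in the newborn mouse stomach, out of 105543 regions that were accessible in both libraries. They were chosen by position alone. Peaks with an overlap of 1 bp or more between the replicates were merged, and a merged region was kept when its centre lay within 500 bp of the 3' end of a protein-coding gene, in no coding interval and more than 1 kb from any annotated transcript start (GENCODE M21, build mm10). The assay was DNase-seq, which sequences the ends of fragments cut by DNase I where DNA is not shielded by nucleosomes. The series holds 1 group, stomach tissue of B6NCrl mice at postnatal day 0, with 2 libraries called biological replicates and no treatment or altered allele in the labels. The donor label is the same for both libraries, the sex was not recorded, and nothing states that separate animals were used, so the spread between them may be technical. Replicate 2 was run on a pair of sequencing instruments, while none is named for replicate 1. The tissue label was checked against open promoters: all 13 marker genes of gastric epithelium had one, 5 of 6 smooth muscle markers did (Acta2 did not), and none of 6 markers of liver, pancreas, skeletal muscle, intestine, blood or T cells did. In tissue of several cell types, a weak region in many cells and a strong one in few cells cannot be told apart.

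A gene's 3' end is where the transcript is cut and given its poly(A) tail, directed by a hexamer, usually AATAAA or ATTAAA, a short way upstream of the cut. Polymerase runs on past that point before it is released. Open chromatin at such ends can be a distal regulatory element of that gene or a neighbour, a binding site of the architectural protein CTCF, or the start of an unannotated transcript. CTCF marks the borders of chromatin loops, and AP-1, the dimer of Fos and Jun proteins, is a common occupant of enhancers.

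The sequences that carry the description are given first. All are printed 5' to 3' from the mm10 genome sequence of RefSeq. Stretches of 30 bases around the CTCF consensus are shown for the 5 strongest regions with a match, with the match in capitals, on the strand on which it reads forward.
Ror2 (chr13:53109743-53109772, plus strand): catcctccgCCAGCAGGGGGCtcacggagc
Ripor1 (chr8:105622557-105622586, plus strand): gagctgtcgCCACCAGGGGGCagcagaact
Zfp703 (chr8:26981881-26981910, minus strand): tccatattgCCACTAGATGGCgccagaggc
Gpr61 (chr3:108148066-108148095, minus strand): cagagactgCCAGTAGGTGGCagtgtgagc
Rdh5 (chr10:128913379-128913408, minus strand): gagagatggCCACCAGAGGGCgcttttctc
The matches at Ripor1, Gpr61 and Rdh5 lie on the strand of the gene, and those at Ror2 and Zfp703 on the opposite strand.

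The 5 strongest regions with an AP-1 site, TGACTCA or TGAGTCA in capitals, are shown because this site is the second most frequent of the transcription factor strings searched. All 5 are printed on the plus strand.
Gm10300 (chr4:132076890-132076916): tgctagtgggTGACTCAgcaacgccgg
Hrct1 (chr4:43728722-43728748): agaaagtcagTGACTCActggaataga
Tuba4a (chr1:75214780-75214806): actgcttcccTGAGTCAccagggaggg
Xpc (chr6:91489106-91489132): ttggtaagagTGACTCAacattttaaa
Ier2 (chr8:84661634-84661660): gggggcgaggTGACTCAagtcacttcc

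For 3 gene ends that were themselves covered by a region, the last 30 bases of the gene are printed on its own strand (plus), with the hexamer in capitals.
Tlcd2 (chr11:75470870-75470899): gAATAAAttgctgtgcaaatgatttcatca
Ung (chr5:114139294-114139323): caggctAATAAAagatggttgacaattggc
Myo1h (chr5:114365328-114365357): aaAATAAAtactgcaacaaaggttctcaca

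A pair of whole regions that touch no annotated exon is shown for genes named further on, the strongest region of all (Acvrl1) and the strongest of the smooth muscle genes (Lmod1), both on the plus strand, which is the strand of the gene.
Acvrl1 (chr15:101145636-101145785): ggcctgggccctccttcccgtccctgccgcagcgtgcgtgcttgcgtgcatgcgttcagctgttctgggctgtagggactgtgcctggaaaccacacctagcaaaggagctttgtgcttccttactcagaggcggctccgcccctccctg
Lmod1 (chr1:135368316-135368465): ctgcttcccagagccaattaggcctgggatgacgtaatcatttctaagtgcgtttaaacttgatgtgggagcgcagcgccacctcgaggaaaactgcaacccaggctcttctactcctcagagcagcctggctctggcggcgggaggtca
Of the consensus strings searched, the Acvrl1 region holds only that of RUNX and the Lmod1 region none.

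Open regions were about as dense at gene ends as in the sequence a little further away. Since the rule removes coding sequence and the surroundings of transcript starts, counts were divided by the sequence left to them. Within 500 bp of an end there were 50.3 regions per Mb of such sequence (exact Poisson 95% interval 47.0 to 53.7), against 51.4 in the flanks, 1 to 2 kb from an end on either side (48.9 to 54.0). The ratio was 0.979, and it was 0.985 in the peaks of replicate 1 alone and 1.01 in those of replicate 2 alone. Both zones lay above the eligible genome as a whole, which held 28.9 regions per Mb (28.7 to 29.1). Intervals throughout cover counting error only, and no tests were run, since an exact sign-flip test over 2 libraries could not go below p = 0.5.

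Regions were more often found past the gene end than before it. Of the 886, 523 lay downstream (59.0%, Wilson 95% interval 55.8 to 62.2), against 52.9% of the eligible sequence, and the other 363 lay inside the gene or on its last base. The first 500 bp downstream held 56.1 regions per Mb (51.4 to 61.2), against 43.8 in the last 500 bp of the gene (39.4 to 48.5), a ratio of 1.28. That ratio was 1.21 in replicate 1 alone and 1.30 in replicate 2 alone. The same side difference was seen further out, with 58.8 regions per Mb at 1 to 2 kb downstream and 42.5 at 1 to 2 kb inside, so it was not particular to the end.

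Around the end itself the density was lower than over the window as a whole. Within 50 bp of the last base there were 63 regions, or 33.5 per Mb (25.7 to 42.8), an interval that lies below that of the whole window. It overlaps those of the last 500 bp of the gene (39.4 to 48.5) and of 1 to 2 kb inside the gene (39.2 to 46.1), and lies below that of the first 500 bp downstream (51.4 to 61.2). Each library alone had a lower density there, with 42.5 peaks per Mb within 50 bp against 65.9 within 500 bp in replicate 1, and 49.4 against 72.6 in replicate 2. Set beside the last 500 bp of the gene, the interval within 50 bp was lower in replicate 1 (33.7 to 52.9, against 54.3 to 64.9) and overlapped in replicate 2 (39.9 to 60.5, against 57.3 to 68.2). The highest 100-bp bin of the window was 200 to 299 bp downstream, with 126 regions or 67.6 per Mb (56.4 to 80.5). The genome sequence at the 20720 gene ends with any eligible sequence had a GC content of 34.4% over the 50 bases centred on the end, against 45.4% around 500 bp before it and 45.0% around 500 bp after it. The part of base composition in this lower density was not tested.

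**Figure D1:**
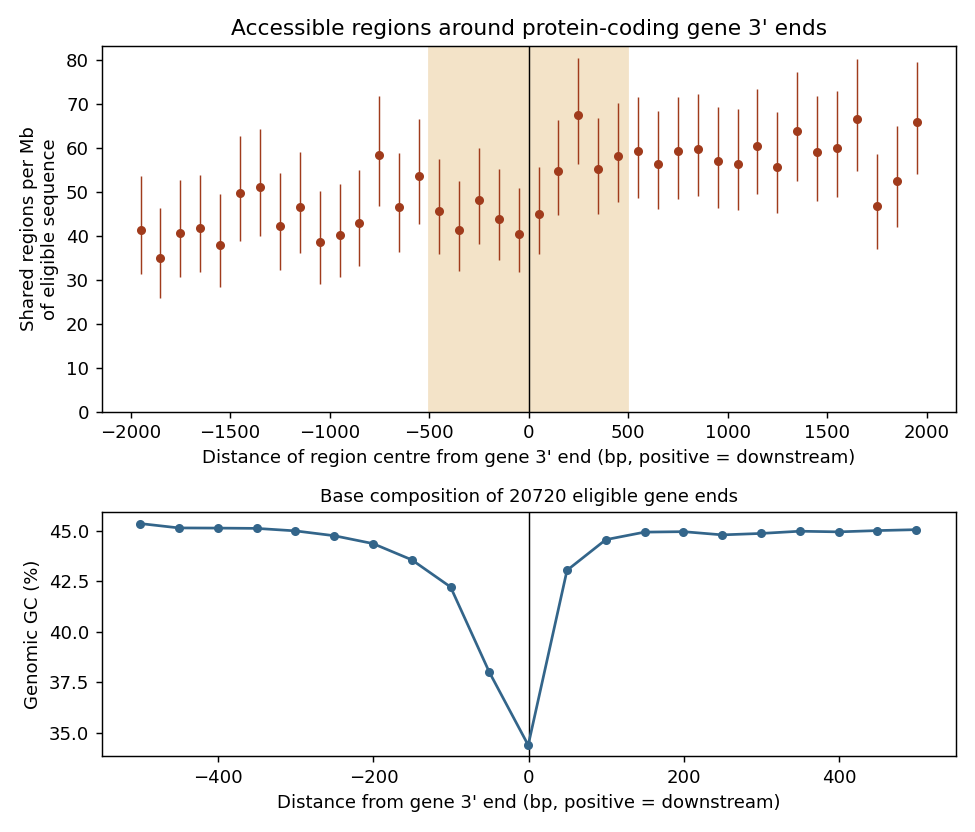
Upper panel: shared regions per Mb of eligible sequence in 100-bp bins by distance of the region centre from a protein-coding gene's 3' end, with exact Poisson 95% intervals; the shaded band is the 500 bp on either side that defines the 886 regions. Lower panel: GC percent of the genome around 20720 gene ends in 50-bp bins. Within the band the lowest bin is just before the end (40.4 per Mb, 31.7 to 50.8), close to 41.4 at -400 to -301 bp. Outside the band, the bin at -1900 to -1801 bp is lower (35.0 per Mb). The highest bin of the band is 200 to 299 bp downstream (67.6 per Mb), and GC falls to 34.4% at the end.

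The regions split almost evenly between sequence inside annotated transcripts and sequence between genes. By their centre, 428 were intergenic (48.3%, 45.0 to 51.6), 350 lay in a 3' UTR (39.5%, 36.3 to 42.8), 91 in an intron of some transcript (10.3%) and 17 in another exon (1.92%). The last base of a gene was covered by 121 of them (13.7%, 11.6 to 16.1), and 441 (49.8%) touched no exon at all. Most, 727 (82.1%), also had a protein-coding gene end of the RefSeq annotation within 500 bp. A RefSeq transcript start lay within 1 kb of the centre of 31 regions (3.5%), against 3.61% of regions in the flanks. The nearest annotated start was a median of 4466.5 bp away and belonged to the same gene for 420 regions (47.4%). It was within 2.5 kb for 242 regions and beyond 10 kb for 168.

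Most regions lay near a single gene end. Only 45 lay within 500 bp of 2 ends and 1 within 500 bp of 3. Just inside the 500 bp limit were the regions of Podn, at -500 bp (signal 44 in replicate 1 and 48 in replicate 2; negative distances are inside the gene), and of 6030452D12Rik, at 499 bp (47 and 65). Just outside it were those of Efhd2 (48 and 74) and Wdr93 (52 and 83), both at 501 bp.

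Accessibility at gene ends was of middling strength. The deposited peak signal, which has no stated unit or scaling and serves here only to rank peaks within a library, had a median of 52 in replicate 1 (quartiles 40 and 67, range 8 to 122) and 65 in replicate 2 (51 and 79, range 14 to 123). Regions in the flanks had medians of 51 and 63, all shared regions 50 and 62, intergenic ones 46 and 58, and promoters, regions within 1 kb of a transcript start, 62 and 74. As percentiles of each replicate's own peak list, gene ends stood at 63.3 and 67.4, against 61.9 and 65.0 in the flanks and 75.0 and 76.8 at promoters. Inside and downstream regions had the same median percentile in replicate 1, and in replicate 2 it was 67.4 inside and 66.2 downstream. Few were very strong: 50 of 886 (5.64%, 4.31 to 7.36) were in the highest 10% of both libraries, against 5.50% in the flanks, 25.6% of promoters and 11.4% of all shared regions.

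**Figure D2:**
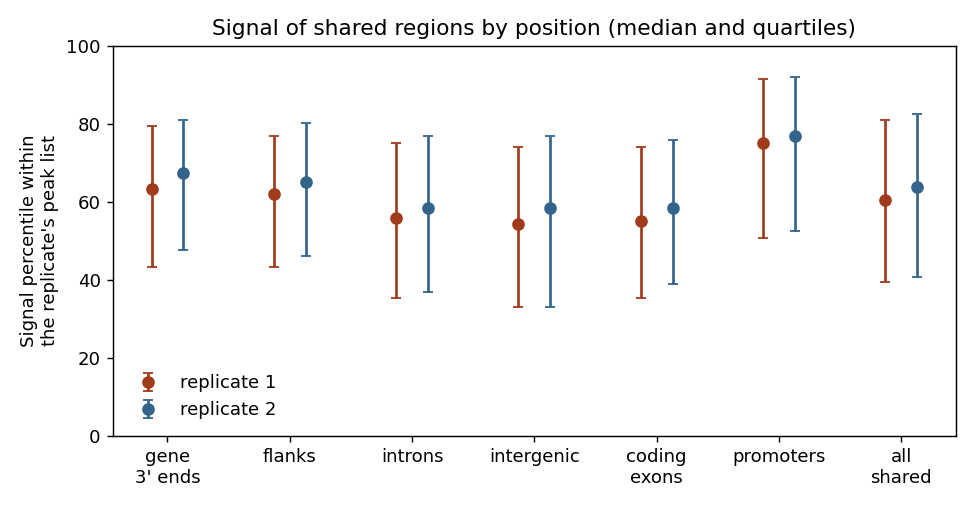
Signal percentile within each replicate's own peak list (vertical axis) of shared regions by position (horizontal axis), as median (point) and quartiles (bar), for replicate 1 and replicate 2. Gene 3' ends (63.3 and 67.4) lie close to the flanks and below promoters (75.0 and 76.8).

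The libraries ranked these regions alike, and sharing was about as frequent as elsewhere. Before merging, 1161 peaks of replicate 1 and 1278 of replicate 2 met the positional rule, and 78.9% (76.5 to 81.1) and 71.1% (68.6 to 73.5) of them had a partner in the other library. In the flanks the shares were 78.3 and 72.4%, and over all peaks 77.6 and 70.7%. Unshared peaks at gene ends were weaker, with a median signal of 29 against 52 for shared ones in replicate 1, and 40 against 64 in replicate 2. Between libraries, the signals of the 886 regions had a Spearman coefficient of 0.884, which describes regions of the same 2 libraries, against 0.867 in the flanks and 0.910 over all shared regions.

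**Figure D3:**
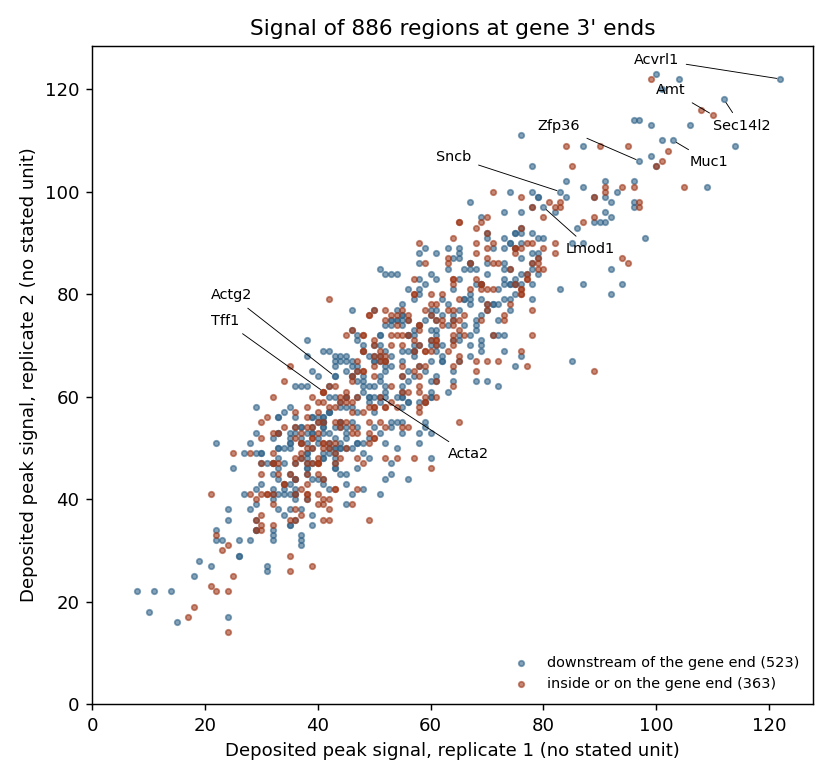
Deposited peak signal of each of the 886 regions in replicate 1 (horizontal axis) and replicate 2 (vertical axis), neither with a stated unit, coloured by side of the gene end, with a few of the genes described in the text marked. The points run along one band from 8 and 22 to 122 and 122, with downstream and inside regions mixed along it.

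The strongest region lay 375 bp past the end of Acvrl1, the gene of the endothelial TGF-beta family receptor ALK1, with a signal of 122 in both replicates. It stood 8111 bp from the nearest start, which is the gene's own, and Acvrl1 had no shared region at any of its promoters. A weaker region of the same gene lay in its 3' UTR at -355 bp (65 and 94). Next came Sec14l2, which encodes a lipid-binding protein, at 288 bp (112 and 118), though this region lay only 1306 bp from a start of the neighbouring gene Mtfp1. The region of Amt, an enzyme of glycine breakdown, lay in its 3' UTR at -231 bp (110 and 115).

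The remaining strong regions stood at genes of varied function. That of Ticam1, the TRIF adaptor of Toll-like receptor signalling, lay at 18 bp and so covered the gene end (104 and 122). Vgf, a neuropeptide precursor, had one at -490 bp (108 and 116), and Ctdsp1, a small phosphatase of the RNA polymerase II tail whose gene hosts the microRNA Mir26b, had one at 176 bp (114 and 109). The uroplakin gene Upk1a followed with 101 and 120, and the zinc finger gene Zfp707 with 106 and 113. The Upk1a region lay 48 bp from a RefSeq transcript start. Muc1, the membrane mucin of epithelia including the stomach's, had a region at 340 bp (103 and 110), and Prss8, the epithelial protease prostasin, one at 235 bp (99 and 113). At 4 more of the 15 strongest regions, those of Gm10300, Icam4, Cystm1 and Lrrc24, signals ran from 97 to 102 in replicate 1 and from 108 to 122 in replicate 2.

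A second region within reach of the same end was uncommon. One region was found at 835 gene ends and 2 at 49. The 5 such genes with the strongest pairs were Acvrl1, Ctdsp1, Fads3, Ier2 and Prss8. At Fads3, a fatty acid desaturase gene, the downstream region at 351 bp was stronger (100 and 105) than that at -79 bp (51 and 69). At Ier2, an immediate early gene, the region inside the gene at -380 bp (105 and 101) was stronger than that at 20 bp (76 and 96). These regions lay only 1141 and 1541 bp from the gene's own start. At Prss8 both regions lay downstream, and the one at 445 bp (61 and 63) was weaker than the one nearer the end. The weaker region of Ctdsp1 lay inside the gene at -124 bp (56 and 61).

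In GC and CpG content, regions at gene ends resembled regions in the flanks and not promoters. Median GC content was 51.4%, against 50.6% in the flanks and 51.2% over all shared regions, and the ratio of observed to chance CpG dinucleotides was 0.25, against 0.208 in the flanks and 0.632 at promoters. CpG-rich sequence, with over 50% GC and a ratio above 0.6, was found in 49 of 886 (5.53%, 4.21 to 7.24), against 4.74% in the flanks, 49.6% of promoters and 18.3% of all shared regions. Among the 222 strongest gene-end regions 26 were CpG-rich (11.7%, 8.12 to 16.6), and among the 221 weakest 6 (2.71%, 1.25 to 5.8). On the X chromosome there were 8 (0.903%, 0.458 to 1.77), against 1.08% in the flanks (0.672 to 1.72) and 2.12% of all shared regions.

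CTCF consensus matches were the most frequent of the transcription factor strings searched, on both strands. They stood in 137 regions (15.5%, 13.2 to 18), against 7.74% of all shared regions, 11.2% of intergenic ones, 8.69% of intronic ones and 3.03% of promoters. The flanks, at 15.6% (13.9 to 17.4), did not differ from gene ends beyond counting error, so the share was not particular to the 500 bp around an end. The match was on the gene's own strand in 75 of the 135 regions with matches on 1 strand (55.6%, 47.1 to 63.7). With the regions ranked by strength and cut into 4 sets, shares were 14.9% in the strongest set, 18.9 and 17.2% in the next sets and 10.9% in the weakest, with overlapping intervals.

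The 5 strongest CTCF-matched regions stood at genes of several kinds. At Ror2, a Wnt receptor kinase, the region lay at -419 bp with signals of 90 and 109. Ripor1 had one at 432 bp (91 and 94), and the corepressor gene Zfp703 one at 390 bp (84 and 99). The orphan receptor gene Gpr61 had one at 280 bp (79 and 99), and Rdh5, a retinol dehydrogenase, one at 162 bp (78 and 97). A letter match is a description and does not show that the protein was bound.

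AP-1 sites came next, in 101 regions (11.4%, 9.47 to 13.7), against 10.5% in the flanks, 10.6% of all shared regions and 5.30% of promoters. Over all intergenic shared regions the share was 12.8%, and over all intronic ones 13.7%. The strongest examples, printed above, were at Gm10300 (99 and 122), Hrct1 (109 and 101), the tubulin gene Tuba4a (101 and 106), the DNA damage sensor gene Xpc (99 and 107) and Ier2 (105 and 101). Over the same 4 sets shares ran from 10.4 to 13.1% in no order.

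Strings of factors that act in stomach endoderm had shares whose intervals include that of all shared regions. The GATA string (AGATAAG or TGATAAG) stood in 54 regions (6.09%, 4.70 to 7.87), against 7.21% in the flanks and 6.68% of all shared regions. The FOXA string TGTTTAC was in 45 (5.08%, 3.82 to 6.73), against 4.49% in the flanks and 4.77% of all, and the HNF4 string CAAAGTCCA in 9 (1.02%), against 0.696 and 1.03%. The RUNX string AACCACA, of a family active in blood and many epithelia, was in 44 (4.97%, 3.72 to 6.60), against 4.62 and 3.91%.

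Of 3 strings typical of broadly used promoters, ETS and CREB were rarer than over all shared regions, 31.5% of which are promoters. The GC box had an interval that included its share over all shared regions and lay above that of the flanks. ETS (CCGGAAGT) was found in 3 regions (0.339%, 0.115 to 0.991), against 0.886% in the flanks, 0.393% of intronic regions and 0.436% of intergenic ones. At promoters its share was 3.20%, and over all shared regions 1.30%. CREB (TGACGTCA) was found in 0 of 886, against 0.380% in the flanks, 0.388% of intronic regions, 0.456% of intergenic ones, 1.67% of promoters and 0.817% of all. A count of 0 allows a share of up to 0.339% by a floor of 3 counts, and the Wilson upper limit is 0.432%, so a difference from the flanks was not detectable. The GC box GGGGCGGGG was in 28 (3.16%, 2.20 to 4.53), against 1.14% in the flanks (0.721 to 1.79), 1.27% of intronic regions, 1.45% of intergenic ones, 10.1% of promoters and 4.15% of all. Inside the gene it was in 4.68% of regions and downstream in 2.10%. The strings were counted separately, so a region can hold several, and all were searched on both strands.

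Of the strings searched, the poly(A) hexamer on the gene's strand had the widest gap, in percentage points, between gene ends and their flanks. The rule places regions around annotated ends, where this hexamer lies, so its share is a description only. It lay on the gene's strand in 147 regions (16.6%, 14.3 to 19.2), against 8.54% in the flanks and 9.24% of all shared regions, read on the strand of the nearest gene. On the other strand it was in 82 gene-end regions (9.26%, 7.52 to 11.3). Of the 121 regions that covered the last base of a gene, 77 held it on the gene's strand (63.6%, 54.8 to 71.7) and 14 on the other strand (11.6%). Of the other 765, 70 did (9.15%, 7.31 to 11.4). Regions that covered the end had median percentiles of 58.9 and 61.2, against 64.7 and 67.4 for those that did not. The share with a hexamer was 9.46% in the strongest of the 4 sets (6.27 to 14.0), then 14.9 and 18.6%, and 23.5% in the weakest (18.4 to 29.5). Shares by strength were not computed in the flanks, so this order may not be particular to gene ends. The part of the weaker regions that cover the end in it was not tested.

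**Figure D4:**
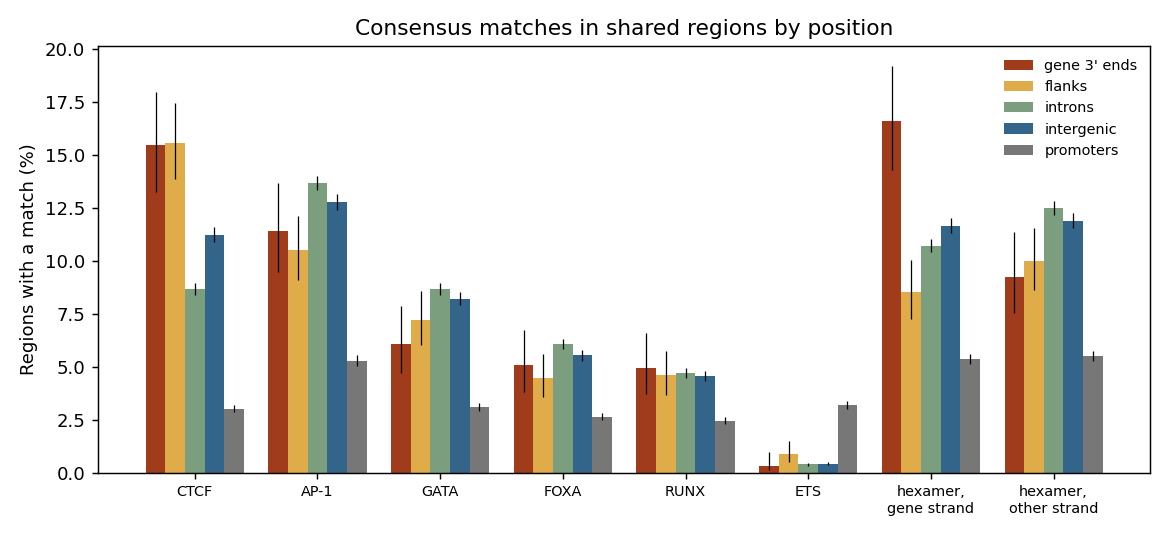
Share of shared regions (vertical axis, percent) with at least 1 match to each consensus string (horizontal axis) at gene 3' ends, in the flanks, in introns, in intergenic sequence and at promoters; bars are shares and lines Wilson 95% intervals. CTCF stands at 15.5% at gene ends and 15.6% in the flanks, while the hexamer on the gene's strand stands at 16.6 and 8.54%.

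Few gene ends had a region: 884 of 20720 (4.27%, 4.0 to 4.55). They belonged more often to genes with an open promoter, meaning a shared region that reaches within 1 kb of one of its starts. Of the 884, 714 had one (80.8%, 78.0 to 83.2), against 66.2% of all eligible gene ends. Read the other way, 5.21% of ends of open-promoter genes had a region (4.85 to 5.59), against 2.43% of ends of the other genes (2.09 to 2.81). With only ends whose whole window was eligible the shares were 5.14 and 2.57%. A poly(A) hexamer within 40 bp before the end was as frequent at ends with a region (624 of 884, 70.6%) as at all eligible ends (70.2%). Genes with a region had a median length of 16.1 kb, against 18.3 kb for those without.

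At 711 regions the gene's strongest promoter region could be set beside the end. The end outranked the promoter at 117 of them (16.5%). The median difference, promoter minus end, was 20.9 percentile points. The promoter value was the highest of all shared regions near any start of the gene, which favours the promoter in this comparison. The widest gain of an end over its promoter was at Sncb, the gene of beta-synuclein, whose region at 339 bp had signals of 83 and 100 and a mean percentile of 91.1, against 24.5 at its promoter. Thbs4, which encodes a thrombospondin of the matrix, had regions at 379 bp (65 and 77) and at -341 bp (70 and 67), with mean percentiles of 78.6 and 75.6, against 12.2 at its promoter. The matrix protein gene Spon1 (79 and 87) had a region at mean percentile 86.8, against 21.7 at its promoter.

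Ends that face the end of a gene on the other strand had a region more often. Of the 884 ends with a region, 124 had a converging end within 1 kb (14.0%, 11.9 to 16.5), against 9.05% of all eligible ends. Among converging ends 6.61% had a region (5.57 to 7.83), against 4.03% of the others (3.76 to 4.32). Genes with an open promoter showed it too, at 6.81% (5.67 to 8.16) and 5.00% (4.62 to 5.40), as did fully eligible windows, at 7.97 and 4.21%. A region whose centre lies within 500 bp of both facing ends counts for both genes. Such ends are not independent, so these intervals may be too narrow.

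Taken by region, 84 had a converging gene end within 1 kb of their own. Their median percentiles were 73.0 and 73.9, against 63.3 and 66.2 for the other 802. CTCF matches stood in 18 of them (21.4%, 14.0 to 31.3), against 119 of the other 802 (14.8%, 12.5 to 17.5), a difference within counting error. Among the strongest were those of Amt facing Tcta (110 and 115), Muc1 facing Trim46 (103 and 110), Prss8 facing Kat8 (99 and 113) and Cystm1 facing Pfdn1 (97 and 114).

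Smooth muscle genes had the highest share of gene ends with a region among 11 gene lists, a description with no test. The lists were chosen with earlier results of these data known, so their order is no independent evidence. A region was found at 5 of 21 (23.8%, 10.6 to 45.1), beside 4.27% of all eligible ends. Lmod1, which nucleates actin filaments in smooth muscle, had the strongest at 326 bp (80 and 97). Acta2 and Actg2, the smooth muscle actins, had regions at -341 bp (51 and 60) and 234 bp (43 and 64). Smtn, the gene of smoothelin, had one at -138 bp (50 and 58), and Pgm5, a cytoskeletal relative of phosphoglucomutase, one at -465 bp (39 and 60). Lmod1, Acta2 and Pgm5 had no shared region at a promoter, and Actg2 had only a weak one, at percentile 15.8. With a 250 bp window 2 of 21 remained (9.52%), beside 2.18% of the other eligible genes. With the stronger 50% of peaks 3 of 21 remained (14.3%), beside 2.68% of the others. With no base of a region in a coding interval it was 4 of 21, beside 4.01%. Around the end of any transcript it was 9 of 22, beside 9.23%. The CArG box, the site of serum response factor, was in none of the 5 regions and in 9 of the 886 (1.02%), against 0.831% of all shared regions. With so rare a string, 5 regions are too few for their count to show a lack of it. The string was added after seeing the data.

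Immediate early genes had 3 of 21 ends with a region (14.3%, 4.98 to 34.6). These were Ier2, Junb, a subunit of AP-1, at 63 bp (68 and 82), and Zfp36, which promotes decay of AU-rich mRNAs, at 173 bp (97 and 106). Gastric gland products had 3 of 26 (11.5%, 4.0 to 29). Beside Muc1 these were Tff1, the trefoil peptide of surface mucous cells, with regions at -286 bp (41 and 61) and 314 bp (35 and 52), and Capn9, a gastric calpain, at -280 bp (35 and 36). Both Tff1 regions lay in introns of some transcript, and their nearest start was that of Gm15318, 2268 and 1668 bp away. Enteric neurons and glia had 2 of 16 (12.5%, 3.5 to 36.0), the glial gene S100b, with regions at 452 bp (80 and 91) and -358 bp (30 and 34) and no open promoter, and the neuronal tubulin gene Tubb3 at 246 bp (36 and 36). The S100b region at 452 bp lay in an intron of some transcript, 3897 bp from a start of Dip2a. That of Tubb3 also lay in an intron, only 1266 bp from a start of Def8. Which gene any of these regions acts on was not tested.

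The other lists had 1 end with a region or none. Of 23 gastric transcription factors Sox21 had one at 371 bp (42 and 53), and of 25 mesenchymal genes Meis1 had one at 206 bp (60 and 73). Prss8 was the only one of 19 general epithelial genes. Of 16 histone genes, whose main transcripts end without a poly(A) tail, Hist1h1b had one at 412 bp (96 and 97), which was 1154 bp from its own start. Of 20 genes of RNA 3' end processing Papola, the poly(A) polymerase, had one at 347 bp (43 and 48). Housekeeping genes had 0 of 21 and germ cell and photoreceptor genes 0 of 18, which allow shares of up to 14.3 and 16.7% by a floor of 3 counts, with Wilson upper limits of 15.5 and 17.6%. Every list but smooth muscle and immediate early genes had an interval that includes the share over all ends. All 22 immediate early genes had an open promoter, and their interval includes the 5.21% found over ends of open-promoter genes.

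**Figure D5:**
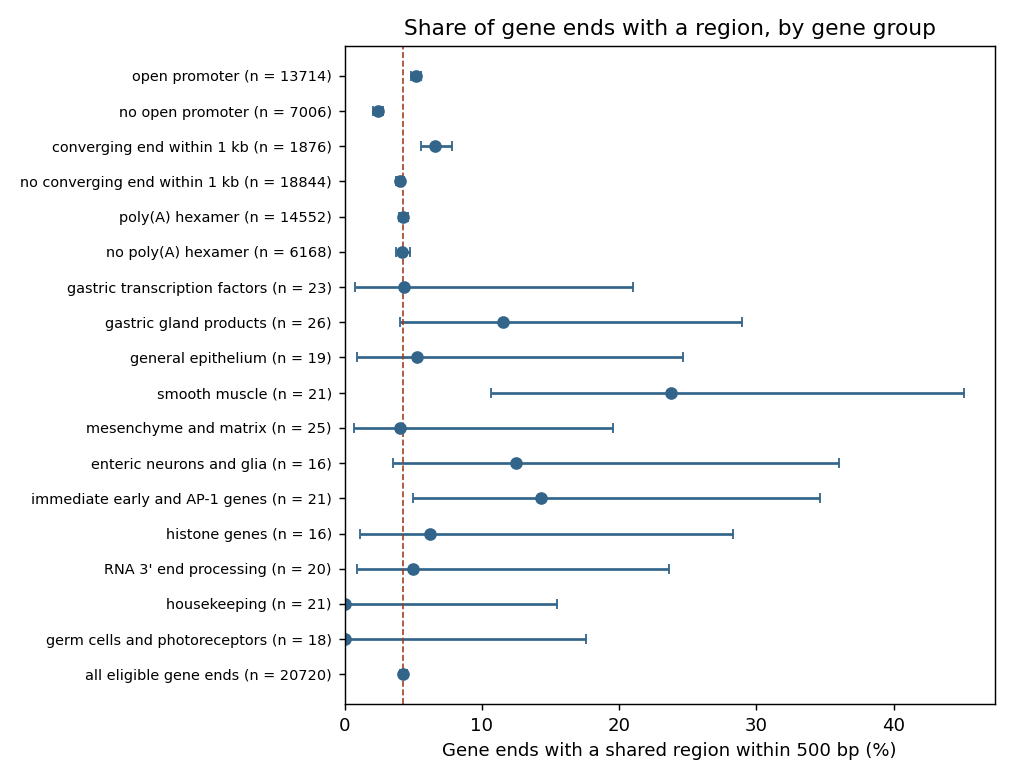
Percent of eligible gene ends with a shared region within 500 bp (horizontal axis) by promoter state, converging neighbour, hexamer and gene list (n in brackets), with Wilson 95% intervals; the dashed line is the 4.27% of all 20720 ends. Smooth muscle stands at 23.8% of 21 genes with an interval from 10.6 to 45.1%, and the intervals of most other lists cross the line.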

How the data were processed

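DNase-seq peak lists of 2 libraries of newborn stomach were used. Per the deposited file lists, the authors called peaks and hotspots in each replicate from its own filtered alignments on mm10. Which aligner, peak caller and thresholds were used is not given in the sources used here, nor is the number of reads, so depth is unknown. The deposited peak signal is a whole number with no stated unit, and it was turned into percentiles within each list. The deposited hotspots carry a -log10 q-value, which was not used in a result.

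Peaks on the 19 autosomes, X and Y were kept, 139374 in replicate 1 and 152779 in replicate 2. Regions, eligible sequence and consensus matches were computed in Python 3.11.15 with numpy 2.4.6, pandas 2.3.3 and pysam 0.24.0. The rule, the eligible sequence and the string search were tested on simulated data. Sequence came from the RefSeq mm10 genome, indexed with samtools 1.23.1. Shares have Wilson 95% intervals, and densities exact Poisson ones.

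The members and gene lists were chosen with earlier results of these data known, and the CArG string and the exclusion of RefSeq starts after seeing the data. Named are the 15 strongest regions, the 3 strongest of each of 11 lists, the 5 strongest with a CTCF and with an AP-1 match, the 5 genes with the most regions, the 5 widest gains over a promoter, the 5 strongest between converging ends, and the 2 regions on either side of the limit. Other members of the gene lists with a region, the gene ends printed for their hexamers and the genes of whole regions printed were named beside these. Some regions that the rule names are not reported here. Alternatives varied the overlap, window, end definition, start distance, coding filter and signal threshold, and left out each replicate.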

Additional observations from a re-analysis of the deposited data

How the results depend on the processing

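The number of regions followed the width of the rule: 433 with a window of 250 bp, 1774 with 1000 bp, 2123 around the end of any transcript and 553 with the stronger 50% of each list. The percent of eligible ends with a region was then 2.19, 7.88, 9.26 and 2.69, and 5.44 to 5.73 with 1 replicate left out. The percent of ends with a region whose gene had an open promoter was 87.1 for any transcript end, 75.4 with stronger peaks and 80.7 to 83.8 with 1 replicate left out. Open promoters were called anew from the peaks of each setting. The share over all eligible ends was not computed for these settings, so the values do not show whether the link to open promoters changed. The median percentile was 76.2 with stronger peaks and 54.2 in either replicate alone, where weak unshared peaks enter. With 1 replicate left out, CTCF matches were in 12.3 to 12.4% and AP-1 matches in 9.04 to 9.08%. Over all peaks of replicates 1 and 2 the shares were 6.03 and 6.21% for CTCF and 8.88 and 9.24% for AP-1. A merged region is at least as wide as its peaks, and weak unshared peaks enter here too. The part of either in the lower shares was not tested. The gene-strand hexamer ranged from 12.1% with 1000 bp to 24.9% with 250 bp. The density ratio to the flanks and the share downstream stayed within their intervals under every alternative run. No paired analysis was possible because the series has 1 group. Depth limits which weak sites were called, and no value here tests a difference between conditions.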
